A study of Saccharomyces cerevisiae with 4 samples.

Results

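The reading frames described here are those on chromosome XI of budding yeast (Saccharomyces cerevisiae) that carried no standard gene name in the deposited table. They were chosen by name and by level, as the genes whose systematic name begins with YKL (left arm) or YKR (right arm), whose product entry repeats that systematic name, and whose mean normalized count over the 4 libraries was at least 1. Of 67 unnamed chromosome XI frames among the 6697 genes of the table, 62 met the rule, 45 on the left arm and 17 on the right arm. The mean level over both groups, on which members were selected, is therefore no result. Just inside the limit lay YKL111C, with a mean of 2.72, YKR040C with 7.21 and YKR032W with 7.76. Just outside it lay YKR033C, with a mean of 0.24 that came from WT 1 only, and 4 frames listed at 0 in every library (YKL156C-A, YKL145W-A, YKL100W-A and YKR075W-A).

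RNA was profiled in a strain whose Swd2 protein carries an N-terminal tag of 9 Myc epitopes (9Myc-Swd2) and in a wild type (WT) without the tag that the submitters describe as isogenic, with 2 libraries of each. Cultures of both strains were kept at 30 °C in YPD, which is rich medium with glucose, and were collected once the OD600 had reached 1.0. The comparison asked how transcript levels differ when Swd2 carries the tag. The labels give neither the promoter nor any selectable marker of the tagged SWD2 gene, nor how many clones were used, and nothing in them says whether replicate libraries stem from separate cultures. P-values then measure only the spread between these libraries, which may be technical.

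Yeast reading frames are named by position: Y for yeast, K for chromosome XI, L or R for the arm, a number that counts outward from the centromere, and W or C for the strand. Frames keep such a name when no function had been settled, so the class mixes conserved enzymes, very short frames and frames that may not encode a protein. Swd2 belongs both to COMPASS, the histone H3 lysine methylase of yeast, and to the APT module of the cleavage and polyadenylation machinery, and its gene lies on the left arm of chromosome XI.

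RefSeq's annotation of the R64 assembly, which sacCer3 names, held a record for 38 of the 62 frames. It gave 14 of these a standard name that the deposited table lacks (among them NNR2, PSG1 and FPT1), called 19 an uncharacterized protein, and placed none of the 38 across another annotated gene. The other 24 frames had no record there and are given by their systematic name only. Coding lengths of the 38 ran between 120 and 2769 bases, with a median of 877.5.

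The 3 sequences here are from RefSeq's R64 assembly and read 5′ to 3′. The first, on the plus strand at chrXI:403877-404104, is the intergenic stretch that SWD2 shares with its closest unnamed neighbour MCO12 (YKL018C-A), and is shown because the tag was added at the start of SWD2. The 2 frames are read away from each other with 222 bases between them, and the capitals mark their start codons, that of MCO12 as its reverse complement. The other sequences are on the minus strand and show how short some of these frames are. YKL106C-A (chrXI:237147-237266), the shortest placed frame, was one of few with a mean under 20 that passed the test, and its start and stop codons are in capitals. YKL102C (chrXI:248068-248367) had the largest rise among frames with a RefSeq record. Its first 300 of 306 bases are shown, with the start codon in capitals.
MCO12 to SWD2: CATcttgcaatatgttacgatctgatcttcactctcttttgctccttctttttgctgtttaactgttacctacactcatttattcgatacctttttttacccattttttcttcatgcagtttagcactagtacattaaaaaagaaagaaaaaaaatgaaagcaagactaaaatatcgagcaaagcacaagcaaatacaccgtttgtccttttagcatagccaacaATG
YKL106C-A: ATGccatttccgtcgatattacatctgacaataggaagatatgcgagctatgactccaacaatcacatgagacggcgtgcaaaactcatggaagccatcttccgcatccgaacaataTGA
YKL102C: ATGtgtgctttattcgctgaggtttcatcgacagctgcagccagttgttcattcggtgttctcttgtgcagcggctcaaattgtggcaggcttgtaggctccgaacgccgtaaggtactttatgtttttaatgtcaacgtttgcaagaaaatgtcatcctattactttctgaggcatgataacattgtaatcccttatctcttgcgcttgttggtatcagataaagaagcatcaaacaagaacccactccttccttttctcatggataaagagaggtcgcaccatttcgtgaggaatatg

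With the step of each column taken as 1 read, the 9Myc-Swd2 libraries summed to 7849193 and 8316221 reads. The WT libraries summed to 8388090 and 8327878. In 9Myc-Swd2 2 the step lies so near 1 that this reading could not be checked independently. The tagged gene itself stood at 1080.4 and 968.8 normalized counts in the 9Myc-Swd2 libraries, against 334.5 and 350.9 in the WT libraries. By limma-trend the log2 difference was 1.58 ± 0.08 (SE), with an adjusted p of 2.40e-10, beside a median of 0.90 over named chromosome XI genes. Both 9Myc-Swd2 libraries lay above both WT libraries for SWD2, and likewise for 272 of 280 named chromosome XI genes. The separation is thus no specific check of the labels. Of the mating-type markers, the alpha-cell genes MF(ALPHA)1, MF(ALPHA)2, SAG1 and STE3 lay between 398 and 6966 in the 4 libraries, while the a-cell genes MFA1, MFA2, STE2, BAR1, AGA2 and STE6 lay between 14.6 and 796. MFA1, AGA2 and STE6 rose and MF(ALPHA)2 and SAG1 fell, while MFA2, STE2, BAR1, MF(ALPHA)1 and STE3 did not pass. STE6 and STE3 lie on chromosome XI themselves, and STE6 rose by 0.72 on the log2 scale.

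Most unnamed chromosome XI frames were higher in 9Myc-Swd2 cells. With limma-trend on log2(value + 1) and an adjusted p under 0.05 over all 6503 genes tested, 43 of the 62 rose, none fell and 19 did not pass. Among all genes tested, 22.3% rose and 21.4% fell. Over the 62 frames the median log2 fold change was 0.83, with quartiles of 0.50 and 1.09, against 0.0011 over all genes tested. That median is a 1.78-fold higher level, and 21 of the 43 rises were at least 2-fold. The median of the frames was 0.77 without WT 1, 0.87 without WT 2, 0.88 without 9Myc-Swd2 1 and 0.78 without 9Myc-Swd2 2. Such a fit keeps only 1 library in a group, so its adjusted p-values are not on the scale of the full fit. In the authors' deposited table of fold changes and p-values, 39 of the 62 were higher and none lower at an adjusted p under 0.05, where 17.8% of all genes were higher and 15.5% lower. The members were proposed with results of these data known, so the list itself has no p-value. In RNA from whole cultures, more transcript per cell and more cells with the transcript cannot be told apart.

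The shift was present in each pair of libraries. Both 9Myc-Swd2 libraries lay above both WT libraries for 50 of the 62 frames and below both for 2, and the groups overlapped for 10. Over all genes tested, 36.0% lay above in this sense and 35.6% below. The median log2 difference of the frames was 0.80 for 9Myc-Swd2 1 over WT 1, 0.74 for 9Myc-Swd2 1 over WT 2, 0.89 for 9Myc-Swd2 2 over WT 1 and 0.85 for 9Myc-Swd2 2 over WT 2. Between libraries of 1 group the same median was -0.04 for 9Myc-Swd2 1 over 9Myc-Swd2 2 and -0.03 for WT 1 over WT 2. Together the frames took up 0.448% and 0.444% of all reads in the 9Myc-Swd2 libraries, against 0.254% in each WT library.

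**Figure D1:**
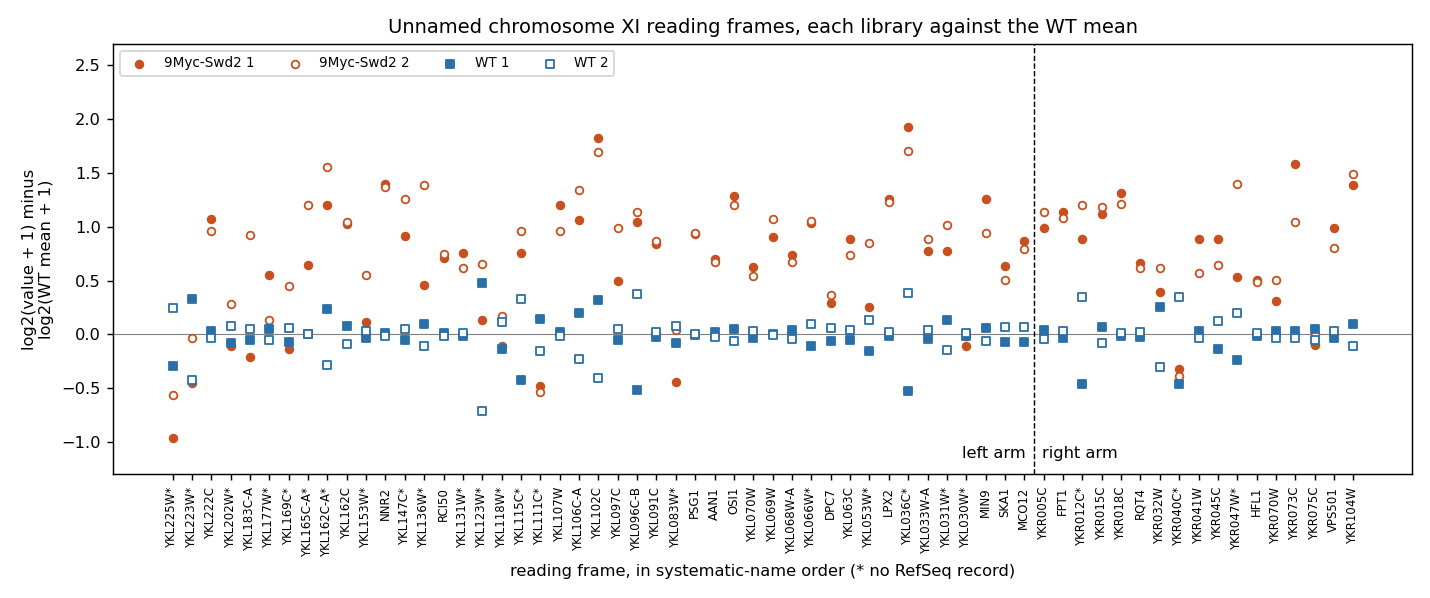
Each of the 62 frames in systematic-name order (x axis), with the log2(value + 1) of each library minus the log2 of the WT mean + 1 (y axis); orange circles are the 9Myc-Swd2 libraries and blue squares the WT libraries. The circles lie above both squares for 50 frames, on both sides of the dashed line that parts the arms, and below both for YKL225W and YKL111C.

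The shift was also seen in the named genes of the chromosome. Of 280 named chromosome XI genes tested, 267 rose and 2 fell, and the median log2 fold change was 0.90, with quartiles of 0.68 and 1.11. Of 1327 unnamed frames tested on the other chromosomes, 173 rose and 174 fell, and their median was -0.03. Named genes of other chromosomes had a median of -0.02, with 965 of 4808 higher and 1206 lower. Scaled to library totals, the counts were 139 higher and 216 lower for unnamed frames elsewhere, and 750 higher and 1496 lower for named genes elsewhere. These counts also moved with single libraries, to 100 higher and 109 lower unnamed frames without WT 1, and to 114 higher and 84 lower without WT 2. Without WT 2 the named genes elsewhere had 569 higher and 703 lower. No test of the difference between these sets was run, because genes of 1 library are not replicates.

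**Figure D2:**
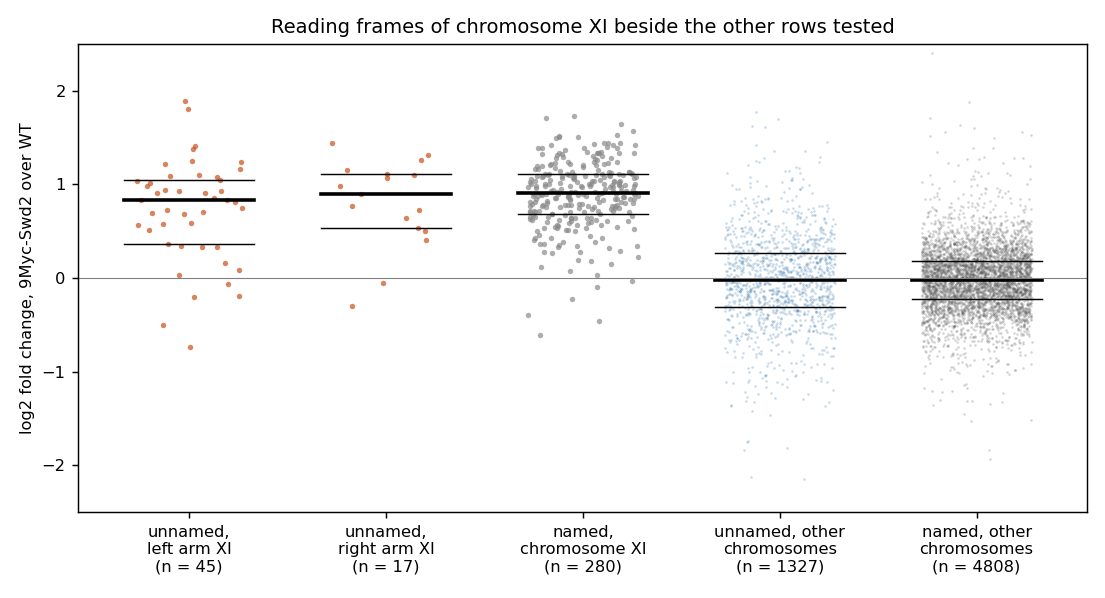
Log2 fold change of 9Myc-Swd2 over WT (y axis) for unnamed chromosome XI frames by arm, named chromosome XI genes, and unnamed and named genes of other chromosomes; each point is a gene, the thick line the median and the thin lines the quartiles, and 1 gene beyond 2.4 is drawn at that limit. The 3 chromosome XI medians lie at 0.83, 0.90 and 0.90, and those of the other chromosomes at -0.03 and -0.02.

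The arms had close medians. On the left arm 29 of 45 rose, and the median log2 fold change was 0.83, with quartiles of 0.36 and 1.05. On the right arm 14 of 17 rose, with a median of 0.90 and quartiles of 0.53 and 1.11. The summed normalized count of the left arm frames was 21694 ± 112 in 9Myc-Swd2 and 11816 ± 182 in WT (SD, n = 2 each), a ratio of 1.84. That of the right arm frames was 15632 ± 263 in 9Myc-Swd2 and 8577 ± 44.2 in WT, a ratio of 1.82.

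The difference of the medians, left minus right, was -0.07, and over the 4 pairs of a 9Myc-Swd2 and a WT library it lay between -0.24 and 0.05. Its sign turned when 9Myc-Swd2 1 was left out, giving 0.08, so no order of the arms can be read from it. Frames without a RefSeq record made up 21 of 45 on the left arm and 3 of 17 on the right. Among frames with a record, 21 of 24 rose on the left arm and 12 of 14 on the right, with medians of 0.90 and 0.84. Across the 38 placed frames the log2 fold change had a Pearson r of 0.09 and a Spearman rho of 0.13 with the distance to the centromere in kilobases, given as a description of genes that share their libraries.

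The frames nearest to SWD2 and to the centromere by name were MCO12 on the left arm and YKR005C on the right. MCO12, a putative mitochondrial protein, stood at 787.9 and 750.0 normalized counts in 9Myc-Swd2 libraries, against 409.6 and 452.0 in WT libraries. Both tagged libraries lay above both WT libraries, and the log2 fold change was 0.84 ± 0.08 (adjusted p = 3.63e-07), beside a median of 0.83 for all 62 frames. YKR005C, an uncharacterized protein, averaged 268 ± 19.2 in 9Myc-Swd2 and 127 ± 5.46 in WT (SD, n = 2 each), and its log2 fold change was 1.07 ± 0.12 (limma-trend, adjusted p = 2.04e-06).

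The frames farthest out by name had fold changes of opposite sign, but that of the left arm did not pass. YKR104W (chrXI:656836-657756, plus strand), the outermost on the right arm, is a putative fragment of an ABC transporter that RefSeq's note describes as joined to its neighbour NFT1 (YKR103W) in other strains. It stood at 276 and 295 normalized counts in 9Myc-Swd2 libraries, against 112 and 97.2 in WT libraries, a log2 fold change of 1.44 ± 0.13 (adjusted p = 8.06e-08). NFT1, chosen after its values were seen, had a log2 fold change of 1.34 ± 0.09. YKL225W, the outermost on the left arm and without a RefSeq record, stood at 7.44 and 10.1 in 9Myc-Swd2 libraries, against 12.4 and 18.5 in WT libraries. Both tagged libraries lay below both WT libraries, but the log2 fold change of -0.74 ± 0.43 did not pass (adjusted p = 0.181). The outermost left-arm frame with a RefSeq record, YKL222C (chrXI:3503-5620, minus strand), rose by 1.02 ± 0.09.

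The annotated frames are described next by the roles that RefSeq gives them. These groups were formed after the values were seen and serve only to order the text, and the frames in them that fall outside the naming rule were chosen likewise. Of all 38 frames with a record 33 rose, as did 267 of 280 named chromosome XI genes. The counts by role are to be read beside these shares, and differences between roles were not tested. The enzymes of redox repair and aldehyde detoxification all rose, 4 of 4, with a median log2 fold change of 1.16. NNR2 (YKL151C, chrXI:164917-165930, minus strand) is the NADHX dehydratase, which repairs hydrated and thus damaged NADH. It stood at 2872 and 2819.6 normalized counts in 9Myc-Swd2 libraries, against 1099 and 1084 in WT libraries, so that the groups were far apart beside the spread within each. Its log2 fold change was 1.38 ± 0.07 (adjusted p = 7.00e-11), the largest among the 8 frames with a mean of at least 1000.

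OSI1 (YKL071W), an NADH-dependent short-chain aldehyde reductase that acts on furfural, stood at 422 and 398 in 9Myc-Swd2 libraries, against 179.6 and 166 in WT libraries. Its log2 fold change was 1.24 ± 0.11 (adjusted p = 4.85e-08). YKL107W, another NADH-dependent aldehyde reductase, rose by 1.08 ± 0.15, and YKL069W, which reduces free methionine-R-sulfoxide, by 0.99 ± 0.08 on the log2 scale.

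All 4 mitochondrial proteins rose, with log2 fold changes between 0.73 and 1.10. MIN9 (YKL023C-A) stood at 681 and 544 in 9Myc-Swd2 libraries, against 295 and 271 in WT libraries, a log2 fold change of 1.10 ± 0.11. YKL162C, whose RefSeq product is a type II protein arginine methyltransferase, changed by 1.03 ± 0.13, and RCI50 (YKL133C) by 0.73 ± 0.08.

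Of 8 membrane, lipid and vacuole proteins, 7 rose, with a median log2 fold change of 0.88. LPX2 (YKL050C, chrXI:342852-345620, minus strand), a peroxisomal lipase, stood at 716 and 701 in 9Myc-Swd2 libraries, against 294 and 301 in WT libraries. Its log2 fold change was 1.25 ± 0.09 (adjusted p = 3.32e-09). PSG1 (YKL077W, chrXI:291453-292631, plus strand), which promotes transport and maturation of the plasma membrane proton pump Pma1, stood at 3021 and 3033 in 9Myc-Swd2 libraries, against 1573 and 1590.1 in WT libraries, a log2 fold change of 0.94 ± 0.07.

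YKL091C, a phosphatidylinositol and phosphatidylcholine transfer protein like Sec14, averaged 1238 ± 18.4 in 9Myc-Swd2 and 684 ± 14.2 in WT (SD, n = 2 each). Per kilobase of coding length the Golgi-localized YKL063C had the highest level of the placed frames, 2498 normalized counts, against a median of 387 over those frames and of 786 over 278 named chromosome XI genes. YKL063C rose by 0.81 ± 0.07 on the log2 scale. HFL1 (YKR051W), a vacuole membrane protein that binds Atg8, rose least of the group, by 0.50 ± 0.09.

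The group's exception was DPC7 (YKL065W-A), an endoplasmic reticulum protein, at 58.5 and 61.5 in 9Myc-Swd2 libraries and 45.6 and 49.6 in WT libraries. The groups did not overlap, but its log2 fold change of 0.33 ± 0.21 did not pass (adjusted p = 0.212). VPS501 (YKR078W), a sorting nexin of the vacuole, rose by 0.90 ± 0.09.

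The 3 frames grouped here, which act in RNA polymerase III regulation, RNA handling or ribosome quality control, rose by unlike amounts. FPT1 (YKR011C, chrXI:461635-462696, minus strand), a negative regulator of RNA polymerase III assembly, stood at 2665 and 2569.6 in 9Myc-Swd2 libraries, against 1181 and 1238 in WT libraries, a log2 fold change of 1.11 ± 0.07 (adjusted p = 6.94e-10). RQT4 (YKR023W), a subunit of the complex that splits stalled ribosomes, stood at 2366 and 2296 in 9Myc-Swd2 libraries, against 1468 and 1519 in WT libraries. Its log2 fold change was 0.64 ± 0.07, and that of SKA1 (YKL023W), which joins the SKI complex, was 0.57 ± 0.08. MIN9 and SKA1 start 347 bases apart on opposite strands, with log2 fold changes of 1.10 and 0.57.

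Among the regulators, YKR075C (chrXI:579827-580750, minus strand) did not rise. It is similar to the phosphatase regulator Reg1 and is itself regulated by glucose and by Rgt1. YKR075C stood at 1122 and 1205 normalized counts in 9Myc-Swd2 libraries and at 1249.8 and 1159.5 in WT libraries. The groups overlapped, and the log2 fold change was -0.05 ± 0.07 (adjusted p = 0.607), at a level where every other frame with a mean of at least 1000 rose. YKL222C, a protein with a zinc-cluster-like domain, rose by 1.02 ± 0.09, and AAN1 (YKL075C), linked to actin cables and branched-chain amino acid metabolism, by 0.69 ± 0.07.

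The remaining 16 frames with a record have no settled role, and 13 of them rose, with a median log2 fold change of 0.80. YKR018C (chrXI:473723-475900, minus strand) took the most reads, with 13.4% of the summed normalized count of the 62 frames. It stood at 5669.7 and 5283 in 9Myc-Swd2 libraries, against 2262 and 2305 in WT libraries, a log2 fold change of 1.26 ± 0.07 (adjusted p = 2.57e-10). YKR015C averaged 555 ± 15.6 in 9Myc-Swd2 and 249 ± 18.5 in WT (SD, n = 2 each), and its log2 fold change was 1.15 ± 0.10.

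YKL033W-A, a member of the haloacid dehalogenase superfamily, stood at 1535 and 1659 in 9Myc-Swd2 libraries, against 871 and 924 in WT libraries, a log2 fold change of 0.83 ± 0.07. YKL183C-A stood at 34.0 and 75.6 in 9Myc-Swd2 libraries and at 38.0 and 40.8 in WT libraries. Only 9Myc-Swd2 2 lay above the WT libraries, and its log2 fold change of 0.36 ± 0.29 did not pass (adjusted p = 0.347). Its log2 fold change was 0.92 without 9Myc-Swd2 1 and -0.21 without 9Myc-Swd2 2.

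The largest fold changes belonged to frames with few reads. YKL036C, which has no RefSeq record, stood at 67.0 and 57.5 in 9Myc-Swd2 libraries, against 11.4 and 22.4 in WT libraries, a log2 fold change of 1.89 ± 0.30 (adjusted p = 7.72e-05). YKL102C, the frame of 306 bases shown above with a predicted thiol-disulfide oxidoreductase site, stood at 118 and 108 in 9Myc-Swd2 libraries, against 40.9 and 24.3 in WT libraries. In each the WT libraries differed from one another more than the tagged libraries did on the log2 scale. The log2 fold change of YKL102C was 1.81 ± 0.23 (adjusted p = 6.44e-06).

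YKL162C-A averaged 58.3 ± 10.2 in 9Myc-Swd2 and 21.6 ± 5.77 in WT (SD, n = 2 each), and its log2 fold change was 1.41 ± 0.27 (limma-trend, adjusted p = 0.000418). YKR073C stood at 91.4 and 62.5 in 9Myc-Swd2 libraries, against 30.4 and 29.2 in WT libraries, a log2 fold change of 1.32 ± 0.23 (adjusted p = 0.00021). Its tagged libraries lay further apart than its WT libraries, and the groups did not overlap.

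The short frame YKL106C-A, chosen after its values were seen, was near the edge of the test. It stood at 18.1 and 22.2 in 9Myc-Swd2 libraries, against 9.50 and 6.80 in WT libraries (adjusted p = 0.0216). The groups did not overlap, but the call was lost without WT 1, without WT 2 and without 9Myc-Swd2 2. YKL106C-A ends 76 bases from the end of YKL107W, on the other strand.

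**Figure D3:**
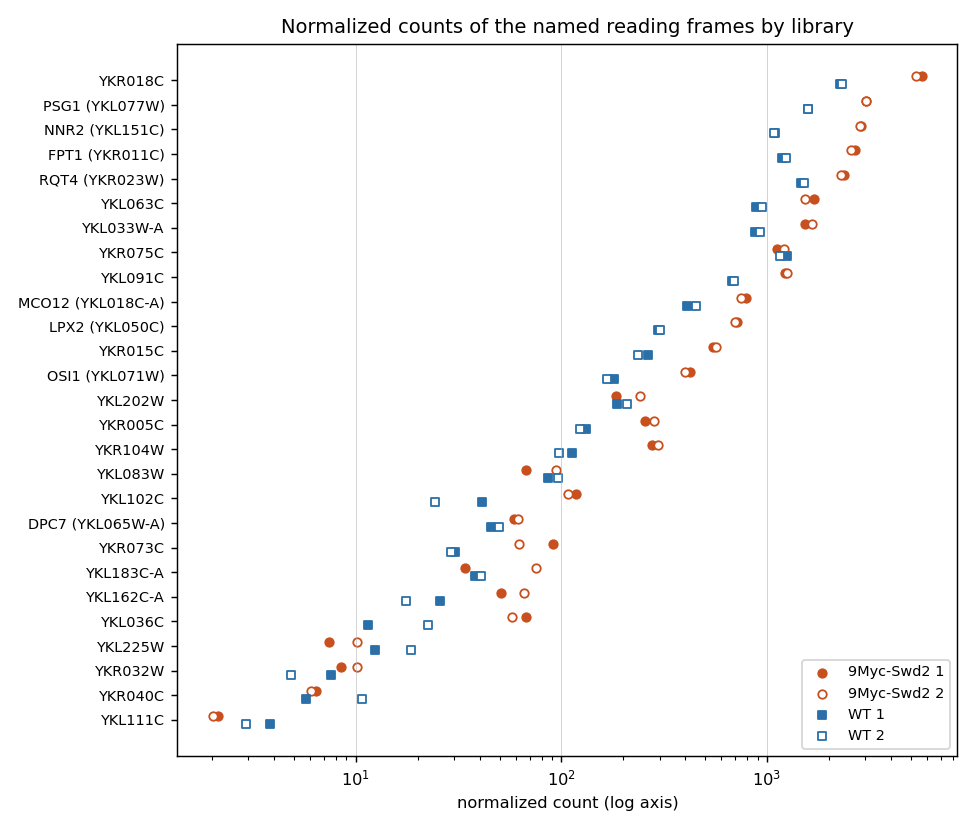
Normalized counts on a log axis (x) of the 27 frames named by rule, with 1 symbol per library; orange circles are 9Myc-Swd2 and blue squares WT. YKR018C is highest, at 5669.7 and 5283 in 9Myc-Swd2 libraries against 2262 and 2305 in WT libraries, and the groups overlap for YKR075C, YKL202W, YKL083W, YKL183C-A and YKR040C.

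Of the 24 frames without a RefSeq record 10 rose, with a median log2 difference of 0.54 and quartiles of 0.01 and 0.94. Of the 38 with a record, 33 rose, with a median of 0.88. Their median normalized counts, not corrected for length, differed too, at 22.6 without a record and 493 with one. The difference in the share of rises was not tested, and without WT 1 it was 6 of the 24 that rose. By the strand letter in the name, 18 of 31 W frames and 25 of 31 C frames rose, beside 22.3% of all genes tested. The W frames more often lacked a record, and among frames with a record the shares of W and C frames that rose were close. The strand difference was not tested either. In the summed level, frames without a record stood at 1.30 and 1.63 times the WT mean in 9Myc-Swd2 1 and 9Myc-Swd2 2, and those with a record at 1.89 and 1.84 times.

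The share of frames that passed differed with level. Of 15 frames with a mean under 20, 2 rose, with a median log2 difference of 0.34 and a median SE of 0.43. Of 424 genes tested at that level over the whole table, 5 rose and 9 fell. Between 20 and 100, 11 of 15 frames rose, with a median of 0.92 and a median SE of 0.24. Of all 582 genes tested at that level, 62 rose and 50 fell. At 100 or more, 30 of 32 frames rose, with a median of 0.88 and a median SE of 0.09. There 265 of 274 named chromosome XI genes rose, with a median of 0.91, and of all 5497 genes tested 1381 rose and 1334 fell. Of the 12 frames without a record that reached a mean of 20, 10 rose. At means under 20 an SE of that size is large beside the class median.

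**Figure D4:**
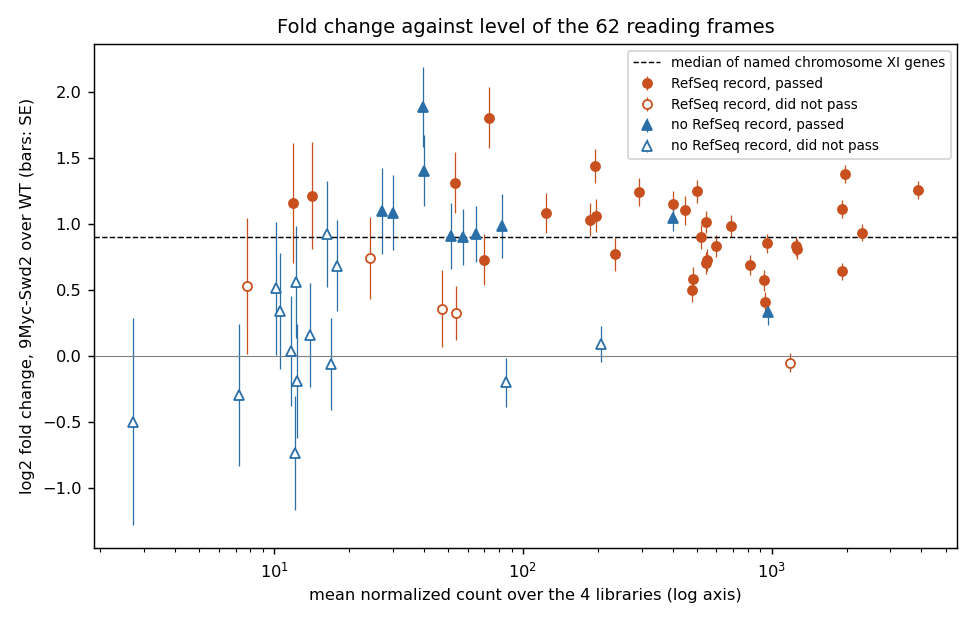
Log2 fold change of 9Myc-Swd2 over WT with its SE (y axis) against the mean normalized count on a log axis (x) for the 62 frames; filled symbols passed the test, triangles have no RefSeq record, and the dashed line is the median of named chromosome XI genes, 0.90. Open symbols gather at means under 20, where the median SE is 0.43, and YKR075C is the open symbol at the highest mean.

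Of the 19 frames that did not pass, 6 had a mean of at least 20. YKL202W, without a RefSeq record, stood at 184 and 241 in 9Myc-Swd2 libraries and at 187 and 209 in WT libraries, with a log2 fold change of 0.09 ± 0.14 (adjusted p = 0.625). YKL083W, also without a record, stood at 67.0 and 93.8 in 9Myc-Swd2 libraries and at 86.5 and 96.2 in WT libraries, with a log2 fold change of -0.20 ± 0.19 (adjusted p = 0.414). In both frames the groups overlapped. The fewest reads fell on YKL111C, at 2.13 and 2.02 in 9Myc-Swd2 libraries and 3.80 and 2.92 in WT libraries, YKR040C, at 6.38 and 6.05 against 5.70 and 10.7, and YKR032W, at 8.51 and 10.1 against 7.60 and 4.86. None of the 3 passed, and their adjusted p lay between 0.431 and 0.69.

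Since most named chromosome XI genes rose too, each frame was also set against 1 chromosome-wide value. The median log2 fold change of named chromosome XI genes was subtracted from all chromosome XI genes before the same fit, a comparison added after the values were seen. In it 8 of the 62 frames lay above that median and 11 below. Of all genes in that fit, 18.5% were higher and 22.3% lower. Of the 280 named chromosome XI genes 71 lay above and 66 below, a near-even split largely set by subtracting their own median. The p-values leave out the error of that median. The counts depended on single libraries, with 4 above without WT 1, 3 above and 6 below without WT 2.

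NNR2 stood 0.48 above the chromosome XI median on the log2 scale (adjusted p = 3.25e-05) and YKR018C 0.36 (adjusted p = 0.000481). YKR104W stood 0.54 above it, and YKL036C and YKL102C 0.99 and 0.90. The other frames above it were FPT1, OSI1 and LPX2, by 0.21, 0.34 and 0.35. On the other side, YKR075C stood at -0.95 relative to the median (adjusted p = 7.22e-08), YKL083W at -1.10 (adjusted p = 0.000488) and YKL202W at -0.81 (adjusted p = 0.000375). YKR070W, chosen after its values were seen, rose by 0.41 ± 0.08 against WT and yet stood at -0.49 relative to the chromosome (adjusted p = 0.000184). RQT4 was likewise higher than in WT and below the chromosome median, at -0.26 (adjusted p = 0.00533). The other 6 frames below it lay between -1.64 and -0.21. The lowest of these was YKL225W (adjusted p = 0.014), a frame with few reads that did not pass against WT.

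YKL153W, also chosen after its values were seen, had the smallest rise, at 923 and 1251 in 9Myc-Swd2 libraries against 833.5 and 869.9 in WT libraries. Its log2 fold change was 0.34 ± 0.10 (adjusted p = 0.014), and the call was lost without WT 1 and without 9Myc-Swd2 2. The next gene by name, the glycolytic enzyme gene GPM1, stood at 25498 and 26507 in 9Myc-Swd2 libraries, against 20780 and 20269 in WT libraries, and also had a log2 fold change of 0.34 ± 0.10. YKL153W has no RefSeq record, so whether the pair shares reads was not tested.

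For 5 frames RefSeq's notes name a paralog on another chromosome, which gives a related gene outside chromosome XI measured in the same libraries. These pairs were picked after the values were seen, and reads of stretches that a pair shares could not be told apart. RCI50 rose by 0.73 ± 0.08, while its paralog MGR3 on chromosome XIII stood at 659 and 647 in 9Myc-Swd2 libraries and 620 and 730 in WT libraries, a log2 fold change of -0.04 ± 0.09 (adjusted p = 0.728). LPX2 rose by 1.25 ± 0.09, while EIS1, a component of the plasma membrane domains called eisosomes, had a log2 fold change of 0.09 ± 0.07 (adjusted p = 0.278). YKL091C rose by 0.86 ± 0.07, while SEC14, the essential lipid transfer protein of the Golgi, fell to 1111 and 1069 in 9Myc-Swd2 libraries, against 1386 and 1582 in WT libraries, a log2 fold change of -0.44 ± 0.08 (adjusted p = 0.000141).

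In the other pairs the paralog rose. IML2 on chromosome X, the paralog of YKR018C, stood at 1500.4 and 1546 in 9Myc-Swd2 libraries, against 847 and 877 in WT libraries. Its log2 fold change was 0.82 ± 0.07 (adjusted p = 3.62e-08), beside 1.26 ± 0.07 for YKR018C. YOR062C on chromosome XV, the paralog of YKR075C, stood at 383 and 537 in 9Myc-Swd2 libraries, against 273 and 323 in WT libraries, a log2 fold change of 0.61 ± 0.13 (adjusted p = 0.00113). It was higher in 9Myc-Swd2 where YKR075C was not.

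**Figure D5:**
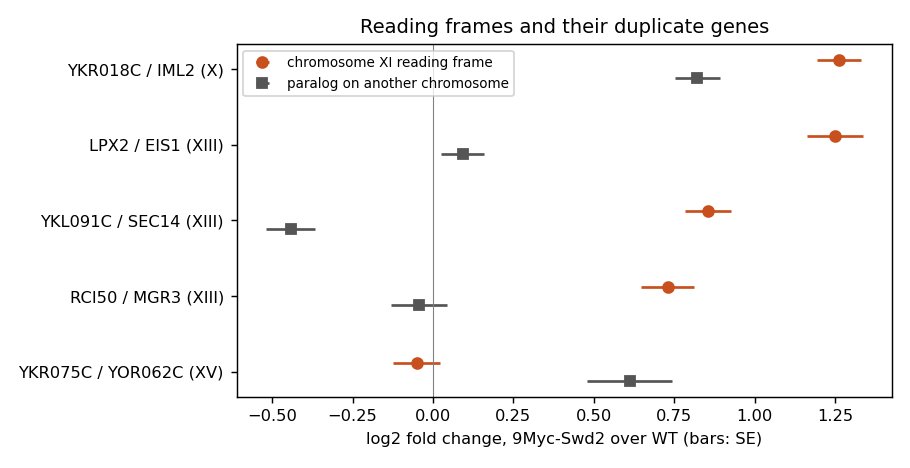
Log2 fold change of 9Myc-Swd2 over WT with its SE (x axis) for 5 chromosome XI frames (orange circles) and their paralogs on the chromosome in brackets (grey squares). The circles of RCI50, YKL091C, LPX2 and YKR018C lie at 0.73, 0.86, 1.25 and 1.26, and that of YKR075C at -0.05, below its paralog at 0.61.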

How the data were processed

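The authors deposited 1 table of 6697 genes with 4 library columns, whose signal is a read count divided by 1 size factor per library. This was found from the values, since each column holds whole multiples of 1 step to within 1e-06. Directional libraries were made per the labels' protocols. The submitters' processing notes name bcl2fastq 1.8.4, which demultiplexes Illumina reads, and the genome build sacCer3. Aligner, counting program and strand setting are not given in these sources, so overlapping and antisense genes could not be told apart. The deposited table also holds the authors' log2 fold changes and p-values, used as an alternative.

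Because the columns are normalized values, limma-trend (limma 3.58.1, R 4.3.3) was run on log2(value + 1) for the 6503 genes with a mean of at least 1, with group as the only term, and p-values were two-sided and Benjamini-Hochberg adjusted at 0.05. Fold changes on this scale understate those of low genes. A value's error is the SD over 2 libraries, and a log2 fold change has its standard error. An exact permutation test of 2 against 2 libraries cannot pass such a threshold and was not used. The fit was also run on simulated data, in which no gene with a mean under 20 was changed and rises were as many as falls. That run therefore does not cover frames with few reads or a shift of a whole chromosome.

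Groups came from the sample titles. Positions, roles and sequences came from RefSeq R64. Frames named by rule were the 10 largest passing rises and 5 largest passing falls with a mean of at least 20 (there were no falls), the 8 highest means, the 5 highest means that did not pass, those next to SWD2, the centromere and the telomeres, the 3 lowest, and up to 6 that RefSeq describes. The sequence of 1 further frame is not reported here. The members, lists and rules were chosen with earlier results of these data known. Alternatives were a replicate block, each library left out, a pseudocount of 0.1, no filter, a filter at a mean of 5 CPM (of the library totals), 3 other scalings, no variance trend and the authors' comparison.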

Additional observations from a re-analysis of the deposited data

How the results depend on the processing

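In each alternative with all 4 libraries at least 37 frames rose, and in no alternative did a member turn its direction past the threshold. With the replicate block 43 rose, the same 43, and the block changed no call of a member. SWD2 had an adjusted p of 6.97e-79 by limma-trend with the block, against 2.40e-10 without it, so these p-values lie on another scale. Deviations of same-numbered libraries from their group means correlated at 0.18 across 5497 genes. The labels do not tie these libraries together. With 2 libraries per group, the deviations of replicate 2 only mirror those of replicate 1. Leaving out 1 library at a time moved the median log2 fold change of the frames between 0.77 and 0.88, of the right arm between 0.77 and 0.93, and of frames with a RefSeq record between 0.82 and 0.93. Counts of calls given next from such fits rest on 1 library in a group. Frames without a record had 6 to 11 rises and a median between 0.36 and 0.69. The difference of left minus right lay between -0.13 and 0.080. Relative to the chromosome XI median, 3 to 9 frames lay above and 6 to 15 below. Named chromosome XI genes had 1 to 2 falls and a median between 0.89 and 0.93. Unnamed frames elsewhere had 100 to 192 rises, 84 to 234 falls and a median between -0.078 and 0.051, and named genes elsewhere 569 to 1109 rises, 703 to 1230 falls and a median between -0.025 and -0.011.

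A filter at a mean of 5 CPM, which leaves fewer low frames, gave a median of 0.90, and 6 rises and a median of 0.91 for frames without a record; a mean of at least 20, added after the values were seen, gave 0.91. Library totals gave medians of 0.82 for frames with a record, 0.84 for named chromosome XI genes and -0.076 for named genes elsewhere, and quantile normalization 0.83, 0.86 and -0.056. Size factors without chromosome XI gave 0.0062 for named genes elsewhere. Without a variance trend 1 member fell, the left-arm frame YKL111C without a record, beside 1 named chromosome XI gene, 553 rises and 741 falls of named genes elsewhere, and 5 frames above the chromosome median; DPC7 then passed. The authors' deposited comparison called 39 of the frames higher and none lower, all 39 among the 43, with 1 fall among named chromosome XI genes and 107 rises and 100 falls among unnamed frames elsewhere. The cause of these differences was not tested. Count-based tests listed as alternatives were not run, because in 1 column the step lies so near 1 that recovery of whole reads could not be checked independently. Depth limits frames with a mean under 20, and each value of a group rests on 2 libraries.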
